A study of Mus musculus with 12 samples.

Results

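The aminoacyl-tRNA synthetases were followed in the livers of mice with concanavalin A (Con A) hepatitis. The genes were taken by symbol from a list of 36 names, 20 for enzymes of the cytosol and 16 for enzymes of the mitochondrion, whose names end in 2. All 20 cytosolic genes and 15 of the 16 mitochondrial genes were found among the 11289 genes of the expression table, which gave 35 genes in all. Pars2, for the mitochondrial prolyl enzyme, was the gene not found under its symbol, and it was not analysed here.

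The livers came from 12 C57BL/6J mice aged 8 to 10 weeks, with 4 mice in each of 3 groups, and no group carried a transgene or deletion in the labels. Mice of the Con A group received 15 mg/kg Con A through the tail vein and PBS 30 min later. In the Con A + MSCs group the same dose was followed after 30 min by 2000000 human mesenchymal stem cells (MSCs) of the umbilical cord, described as Wharton's jelly-derived, and livers were taken at 24 h. The labels describe no injection for the Control mice, and the study's methods give another number of cells and another age than the labels. Con A is a plant lectin that activates T cells and so brings about an immune-mediated liver injury, and the comparisons ask how the liver's RNA changes with the lectin alone and with the cells added.

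Each aminoacyl-tRNA synthetase joins an amino acid to the transfer RNAs that carry its codons, so that the ribosome can use it. Most amino acids have separate enzymes for the cytosol and for the mitochondrion, both encoded in the nucleus, while the glycyl enzyme (Gars) and the lysyl enzyme (Kars) serve both compartments from a single gene. Several cytosolic enzymes sit together in a multisynthetase complex held by the scaffold proteins Aimp1, Aimp2 and Eef1e1. Many cytosolic synthetase genes are known targets of the transcription factor ATF4, which acts when amino acids run short, and Wars, for the tryptophanyl enzyme, is known to be induced by interferon gamma.

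Promoter sequences are shown because ATF4 and its partners bind an element whose core can be written TGATGNAA, where N is any base. Promoters from RefSeq on GRCm38.p6, from 250 bases before to 50 after the start site, were held for 27 of the 35 genes, 13 cytosolic and 14 mitochondrial. Wars and Vars, the genes with the largest changes, were not among them. The core stood on either strand in 5 of the 13 cytosolic promoters (Aars, Gars, Iars, Tars and Yars) and in 0 of the 14 mitochondrial ones. Over all 32851 promoters of that length 3.97% held it, and 2.27% of the 10921 that belonged to genes of the table. The stretches around the core, read on the strand of each gene with the core or its reverse complement in capitals, were these.
Aars: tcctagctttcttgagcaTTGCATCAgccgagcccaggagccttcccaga
Gars: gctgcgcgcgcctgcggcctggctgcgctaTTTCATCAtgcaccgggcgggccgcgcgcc
Tars: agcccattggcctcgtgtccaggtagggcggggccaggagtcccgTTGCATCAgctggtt
Yars: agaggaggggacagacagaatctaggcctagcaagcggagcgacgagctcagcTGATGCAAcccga
Iars: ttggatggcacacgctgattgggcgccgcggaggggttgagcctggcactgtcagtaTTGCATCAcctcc
The stretches lie at chr8:111033712-111033761 (plus strand) for Aars, at chr6:55037941-55038000 (plus) for Gars and at chr15:11399659-11399718 (minus) for Tars. Those of Yars and Iars lie at chr4:129189853-129189918 and chr13:49682080-49682149, both on the plus strand. The Aars window holds a further match to the core, TTTCATCA, starting 9 bases after the start site. For Aars and Yars the RefSeq start lies 698 and 143 bases from the start of the transcript listed in the table.

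For contrast, the last 60 bases before the start site of the 2 mitochondrial genes that fell after Con A are shown without capitals, since the core was not found in their windows.
Nars2: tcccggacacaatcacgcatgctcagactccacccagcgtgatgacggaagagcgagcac
Fars2: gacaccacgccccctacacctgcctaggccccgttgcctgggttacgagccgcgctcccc
They lie at chr7:96951467-96951526 and chr13:36117583-36117642, both on the plus strand, and the RefSeq start of Fars2 is 232 bases from that of the table. The genes with the core did not all change alike, since Gars rose after Con A, Aars, Yars and Iars stayed under the 1.5-fold limit and Tars had a log2 fold change of -0.06. The E-box CACGTG stood in 4 of the 13 cytosolic and 1 of the 14 mitochondrial promoters, against 9.82% for the genes of the table. For the core of the NRF1 site (by name, on both strands) the counts were 3 and 2 (10.1% for the genes of the table), and for the interferon gamma activation site TTCNNNGAA they were 2 and 1 (7.04%). A match describes letters in a window and is no evidence that a factor binds there.

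Values are scores, whole numbers that had been brought to a common scale between mice before deposit, so the depth of sequencing behind them is unknown and no counting error can be given. Fold changes are on the scale of log2(score + 1), with standard errors from limma. A call needed a change above 1.5-fold (0.58 on the log2 scale) together with a p, adjusted by the Benjamini-Hochberg method over the whole table, below 0.05. Where a value is called a rise or fall without further words it met both limits. Scores of different genes were not ranked, since the sources used here do not say whether transcript length was taken into account.

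Several facts of the whole series bear on these genes. Markers of the hepatocyte were high in every liver, with a summed score over 7 of 7 markers of 1081125 to 1369958 in Control, 661412 to 682985 in Con A and 644110 to 702561 in Con A + MSCs mice. Alb stood at the table's largest value, 341028, in all 12 mice, so such sums cannot show how far hepatocyte RNA changed. Of the 7 markers 3 fell after Con A, beside 19.2% of all genes, namely Apoa1 (-1.73), Ttr (-1.55) and Serpina1c (-2.84). Serpina1c stood at that largest value in all 4 Control mice and Ttr in 1 of them. Apoa1 had 1 value, 147628, in all 4 Control mice. Cps1 had 1 value, 147960, in all 12 mice, and Hnf4a (0.23) and Tat (0.09) were not called. With MSCs 0 of the 7 were called against Con A, beside 4.2% of all genes up and 4.38% down. Con A mouse 4 held the highest value of its group in 39.8% of all genes and the lowest in 36.1%, more than the other Con A mice. The counts of called members that it changes are given with and without it. In whole liver, fewer cells of a type and less RNA per cell cannot be told apart.

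After Con A the cytosolic synthetases were higher as a class, and the mitochondrial ones were not. Of the 20 cytosolic genes 11 rose, 0 fell and 9 were not called, while 0 of the 15 mitochondrial genes rose and 2 fell (Fars2 and Nars2). Over all genes 19.5% were called up and 19.2% called down in this comparison. The median log2 fold change was 0.65 for the cytosolic and -0.15 for the mitochondrial genes, beside 0.05 over all genes. Without Con A mouse 4 the cytosolic count was 10 with a median of 0.58, and the mitochondrial count was 1 with a median of -0.18. Above a fold change of 2 there were 2 cytosolic genes (Wars and Vars, both up) and 0 mitochondrial ones, beside 9.81% of all genes up and 11.4% down.

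**Figure D1:**
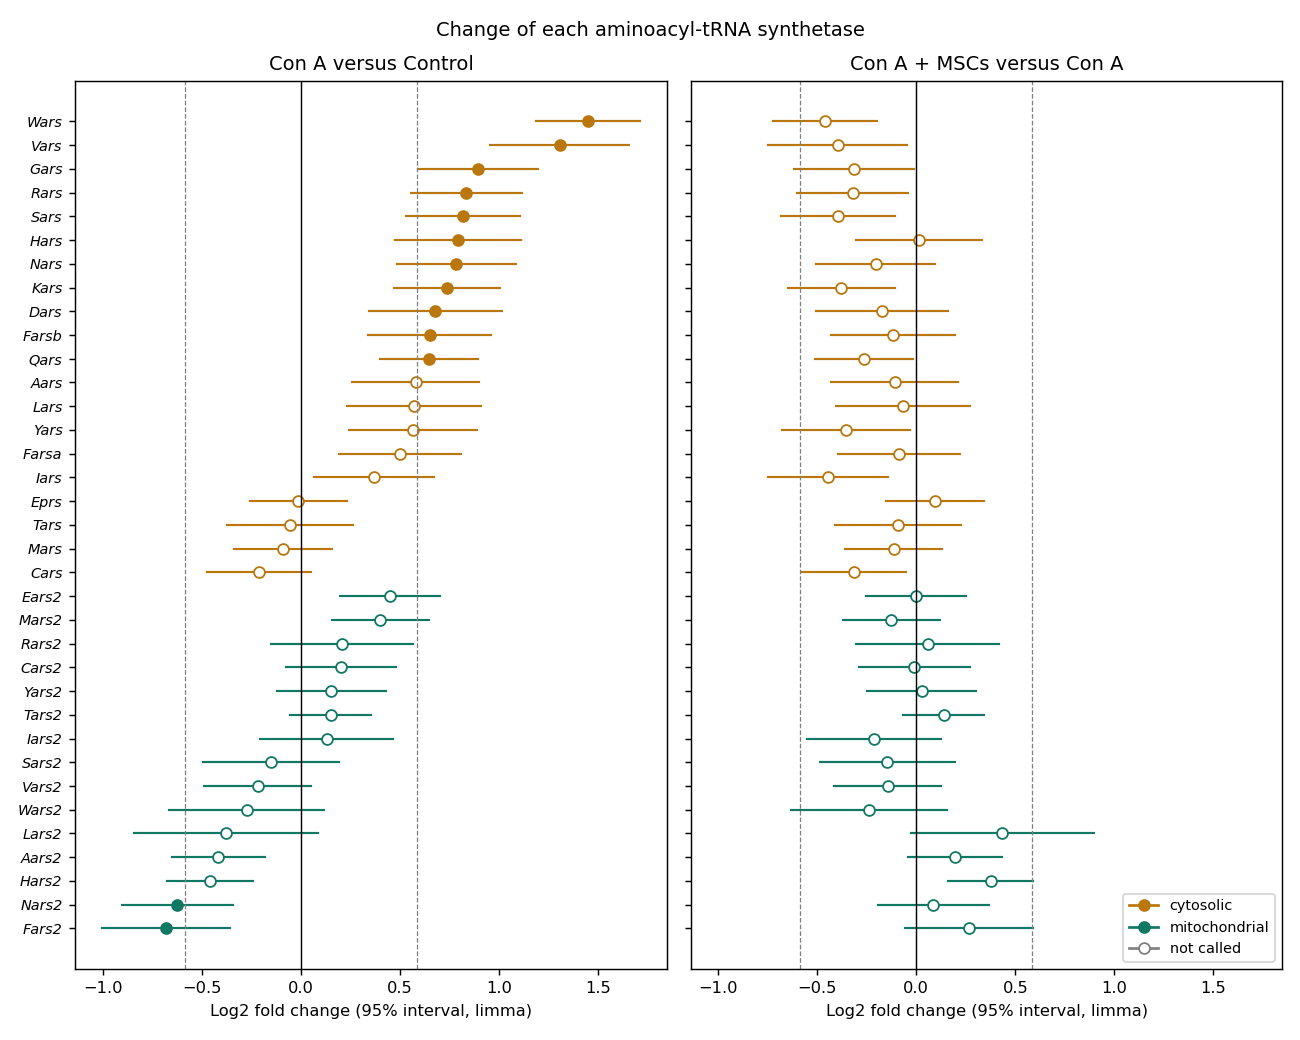
Log2 fold change of each of the 35 synthetase genes with its 95% interval from limma, for Con A versus Control (left) and Con A + MSCs versus Con A (right). Orange is cytosolic, green mitochondrial, filled points are called genes and dashed lines mark a 1.5-fold change. On the left 11 cytosolic genes are filled to the right of the line and 2 mitochondrial genes to the left of it, and on the right none is filled.

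Among the enzymes outside the complex, Wars changed most. The tryptophanyl enzyme stood at 356, 383, 416 and 368 in the Control mice, at 1190, 839, 1001 and 1172 in the Con A mice and at 837, 678, 758 and 756 in the Con A + MSCs mice. The Con A mice were all above the Control mice by a wide gap, and the Con A + MSCs mice lay between the other groups without touching either. Its log2 fold change after Con A was 1.45 ± 0.12 (SE), a 2.73-fold rise with an adjusted p of 2.01e-06. In the mouse annotation its listed transcript runs over chr12:108860030-108894174 with 10 exons (GRCm38), and 544 bases of it overlap Wdr25 on the other strand. The library kit did not mark strand, so reads from that stretch cannot be told apart.

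Vars, for the valyl enzyme, stood at 708, 862, 679 and 830 in Control, at 1934, 1596, 1836 and 2282 in Con A and at 1435, 1064, 1587 and 1774 in Con A + MSCs mice. All Con A mice were above all Control mice, with a log2 fold change of 1.31 ± 0.16 and an adjusted p of 3.58e-05. In the 3 comparisons Wars and Vars, both after Con A, were the only synthetases called with a change above 2-fold. The mitochondrial partners of both genes did not move with them. Wars2 stood at 90, 101, 86 and 105 in Control, at 77, 58, 79 and 108 in Con A and at 67, 64, 76 and 60 in Con A + MSCs mice, with a change after Con A of -0.27 ± 0.18 (adjusted p = 0.216, and -0.42 with 0.049 without Con A mouse 4). Vars2 stood at 384, 500, 396 and 451, then at 342, 333, 403 and 408, and then at 324, 292, 334 and 396 in the same order of groups, a change of -0.22 ± 0.12 (adjusted p = 0.154). For these partners the Control and Con A mice overlapped.

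Gars, for the glycyl enzyme of both compartments, stood at 774, 793, 857 and 801 in Control, at 1352, 1388, 1405 and 1918 in Con A and at 1308, 940, 1352 and 1270 in Con A + MSCs mice. It rose after Con A by 0.90 ± 0.14 (adjusted p = 0.000189), with mouse 4 well above the other Con A mice. Its listed transcript, at chr6:55038001-55079504, starts at the same base as the RefSeq start of the promoter shown above. Sars, for the seryl enzyme, stood at 912, 872, 938 and 721 in Control, at 1485, 1334, 1417 and 1854 in Con A and at 1269, 963, 1167 and 1214 in Con A + MSCs mice. It rose by 0.82 ± 0.13 (adjusted p = 0.000252), and its 3 groups did not overlap.

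The histidyl enzyme Hars stood at 389, 487, 512 and 440 in Control, at 737, 708, 722 and 1024 in Con A and at 730, 681, 882 and 915 in Con A + MSCs mice. It rose by 0.79 ± 0.15 (adjusted p = 0.000652), and both groups given Con A lay above all Control mice. Hars and Hars2 lie head to head, and their listed transcripts share 198 bases on opposite strands, so some reads of each could be counted to the other. For the asparaginyl enzyme Nars the scores were 1426, 1646, 1486 and 1486 in Control, 2485, 2300, 2541 and 3144 in Con A and 2074, 1866, 2352 and 2844 in Con A + MSCs mice. Nars rose by 0.78 ± 0.14 (adjusted p = 0.000472), again with no Control mouse as high as any mouse given Con A.

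Farsb and Farsa encode the 2 kinds of subunit of the cytosolic phenylalanyl enzyme. Farsb stood at 444, 490, 504 and 518 in Control, at 694, 735, 692 and 981 in Con A and at 688, 558, 822 and 792 in Con A + MSCs mice. It rose by 0.65 ± 0.14 (adjusted p = 0.00216), but without Con A mouse 4 the change was 0.53, under the limit. Farsa had a log2 fold change of 0.50 ± 0.14 (adjusted p = 0.0097), also under the limit, with Con A mice at 410 to 574 above Control mice at 277 to 406. Without Control mouse 3 the value for Farsa was 0.61, past the limit.

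Within the complex, 4 of the 8 enzymes rose after Con A, beside 19.5% of all genes called up, with a median log2 fold change over the 8 of 0.61. Outside it 7 of 12 rose, with a median of 0.72, and the difference between these subsets was not tested. Without Con A mouse 4 the counts were 3 of 8 and 7 of 12, with medians of 0.52 and 0.63. Rars, for the arginyl enzyme, stood at 518, 418, 566 and 448 in Control, at 860, 772, 806 and 1046 in Con A and at 711, 607, 770 and 690 in Con A + MSCs mice. Its groups did not overlap, and it rose after Con A by 0.84 ± 0.13 (adjusted p = 0.000176). Kars, the lysyl enzyme of both compartments, stood at 1030, 1034, 1045 and 1022 in Control, at 1720, 1470, 1698 and 2046 in Con A and at 1460, 1106, 1527 and 1248 in Con A + MSCs mice. The Control mice lay close together and well below the Con A mice, while the lowest Con A + MSCs mouse came near them, and Kars rose by 0.74 ± 0.12 (adjusted p = 0.000334).

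Dars, for the aspartyl enzyme, stood at 1698, 1354, 1950 and 1754 in Control, at 2503, 2830, 3406 and 2148 in Con A and at 2204, 2224, 2380 and 2763 in Con A + MSCs mice. It rose by 0.68 ± 0.15 (adjusted p = 0.00255), and the value was 0.58 without Control mouse 2 and 0.57 without Con A mouse 3, both under the limit. For Qars, the glutaminyl enzyme, the scores were 625, 750, 758 and 769 in Control, 1162, 1006, 1046 and 1350 in Con A and 936, 866, 966 and 1018 in Con A + MSCs mice. Qars rose by 0.65 ± 0.11 (adjusted p = 0.000455), with 0.58 without Control mouse 1 and 0.56 without Con A mouse 4. Both genes were separated from Control in every mouse given Con A, and what these values change is whether the rise passes 1.5-fold.

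**Figure D2:**
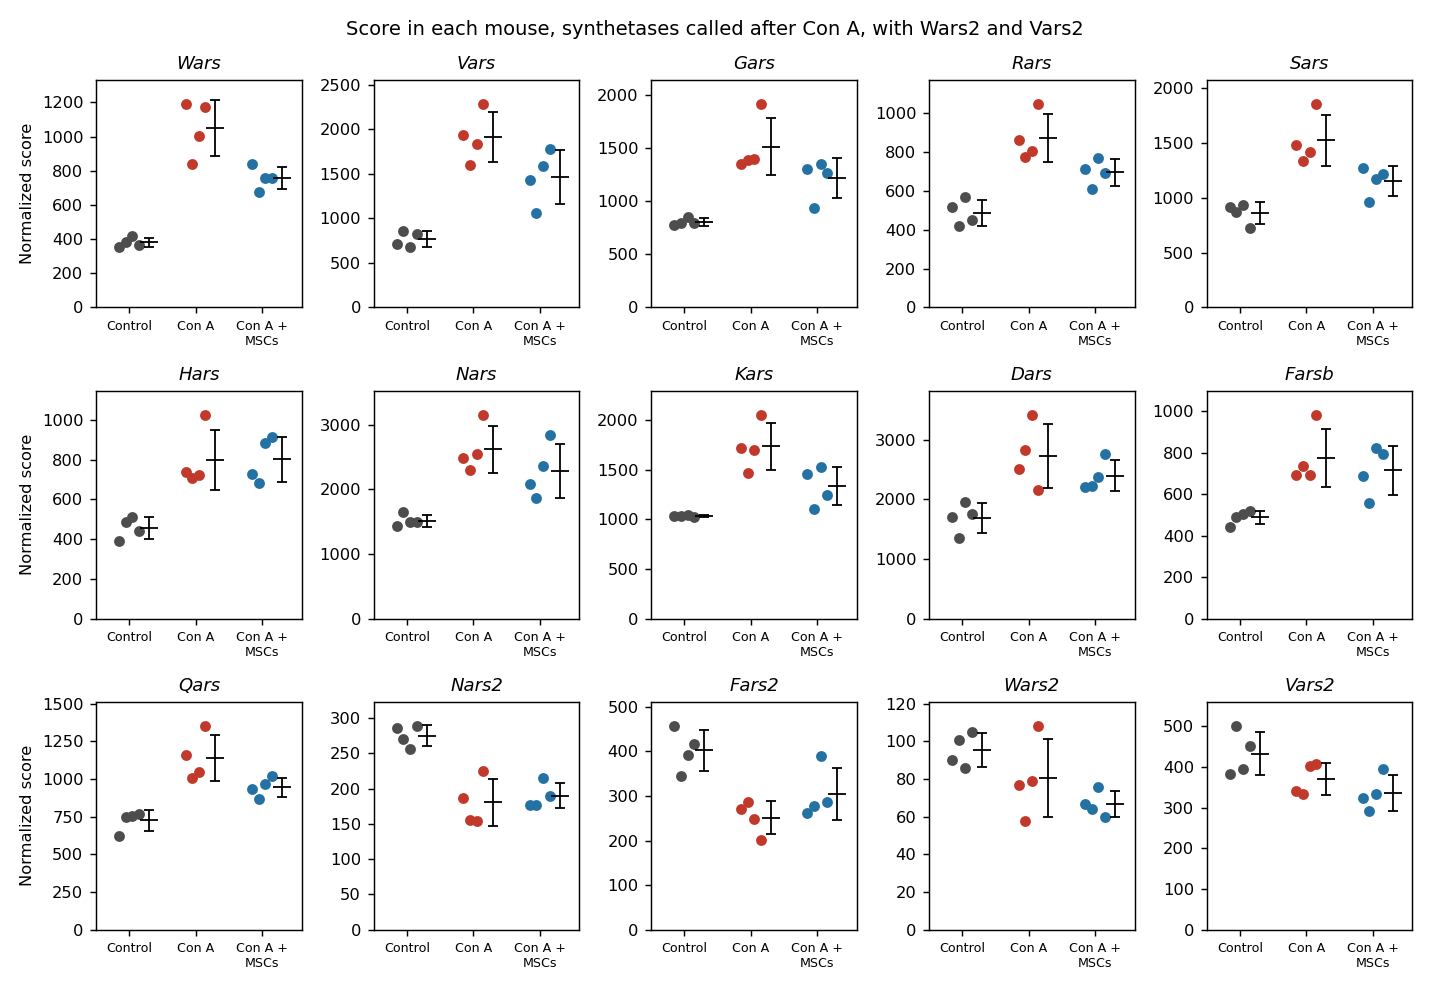
Normalized score in each mouse for the 13 synthetases called after Con A, and for Wars2 and Vars2, with 1 point per mouse and a bar for the mean ± SD of the 4 mice of a group; each vertical axis starts at 0. In the 11 cytosolic panels every Con A point lies above every Control point, in the panels of Nars2 and Fars2 every Con A point lies below, and in those of Wars2 and Vars2 the groups overlap.

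A further 5 cytosolic genes had an adjusted p below 0.05 with a change under 1.5-fold. They were Aars (0.58 ± 0.15), Lars (0.57 ± 0.16), Yars (0.57 ± 0.15), Farsa (given above) and Iars (0.37 ± 0.14), for the alanyl, leucyl, tyrosyl and isoleucyl enzymes besides the phenylalanyl subunit. Adjusted p alone thus held for 16 of 20 genes upward, against 29.5% of all genes, and the same number had all Con A mice above all Control mice, against 27.1%. Iars fell to 0.23 (adjusted p = 0.102) without Con A mouse 4, when adjusted p alone held for 15 cytosolic genes upward. The adjusted p of Iars was also above 0.05 without Control mouse 1 (0.29, adjusted p = 0.109) or Control mouse 3 (0.37, adjusted p = 0.0689). Aars lay just inside the fold limit and passed it without Control mouse 2, Control mouse 3 or Con A mouse 4, with values of 0.63, 0.70 and 0.60. Lars passed it without Control mouse 3 (0.64), Con A mouse 1 (0.64) or Con A mouse 2 (0.62), and Yars without Control mouse 2 (0.61), Control mouse 3 (0.62), Con A mouse 2 (0.60) or Con A mouse 3 (0.60).

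The 4 remaining cytosolic genes had an adjusted p above 0.05 with all mice. Eprs, whose protein charges both glutamate and proline, had a log2 fold change of -0.01 with a 95% interval of -0.26 to 0.24. For Tars, the threonyl enzyme, it was -0.06 (-0.37 to 0.26), and for Mars, the methionyl enzyme, -0.09 (-0.33 to 0.16). Cars, the cysteinyl enzyme, had -0.21 (-0.47 to 0.05), and -0.30 (adjusted p = 0.047) without Control mouse 1. For Eprs, Tars, Mars and Cars the Control and Con A mice overlapped, and the upper bounds of all 4 intervals lie below a 1.5-fold rise. By catalytic fold, 4 of the 9 class I and 7 of the 10 class II cytosolic enzymes rose, with medians of 0.57 and 0.71, beside 19.5% of all genes called up, and Eprs holds both folds. Without Con A mouse 4 the counts were 3 of 9 and 7 of 10, with medians of 0.51 and 0.66. The difference between the classes was not tested.

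Of the mitochondrial genes, Fars2 for the phenylalanyl enzyme stood at 456, 344, 391 and 417 in Control, at 270, 286, 248 and 202 in Con A and at 262, 277, 390 and 286 in Con A + MSCs mice. It fell after Con A with a log2 fold change of -0.68 ± 0.15 (adjusted p = 0.00211), and without Con A mouse 4 the value was -0.58, just inside the limit. Nars2, the asparaginyl enzyme, stood at 286, 270, 256 and 288 in Control, at 186, 156, 154 and 225 in Con A and at 177, 177, 215 and 190 in Con A + MSCs mice. Its change was -0.62 ± 0.13 (adjusted p = 0.00139), with -0.56 without Con A mouse 2 and -0.55 without Con A mouse 3. In both genes every Con A mouse lay below every Control mouse, and what these values change is whether the fall passes 1.5-fold. The listed transcript of Fars2 overlaps Lyrm4 over 116 bases on the other strand.

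Smaller changes with an adjusted p below 0.05 went both ways among the mitochondrial genes. Ears2, the glutamyl enzyme, had 0.45 ± 0.12 (adjusted p = 0.0057) and Mars2, the methionyl enzyme, 0.40 ± 0.11 (adjusted p = 0.00921), both with all Con A mice above Control. Hars2, the histidyl enzyme, had -0.46 ± 0.10 (adjusted p = 0.00196) and Aars2, the alanyl enzyme, -0.42 ± 0.11 (adjusted p = 0.00622), with all Con A mice below Control. Adjusted p alone thus held for 2 mitochondrial genes upward and 4 downward, against 29.5% and 26% of all genes. All Con A mice lay above Control in 2 of these genes and below it in 4, against 27.1% and 23.4% of all genes. The other 9, for the arginyl, cysteinyl, tyrosyl, threonyl, isoleucyl, seryl, valyl, tryptophanyl and leucyl enzymes, ranged from -0.38 for Lars2 to 0.21 for Rars2 and overlapped with Control. Without Control mouse 4 Lars2 had -0.57 (adjusted p = 0.0261). Without Con A mouse 4 adjusted p alone held for 2 mitochondrial genes upward and 5 downward, with Wars2 added. The listed transcripts of Hars2, Ears2 and Wars2 are annotated as a processed transcript, a retained intron and a nonsense-mediated decay form, not as protein-coding. How far their scores reflect the coding RNA was not tested.

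**Figure D3:**
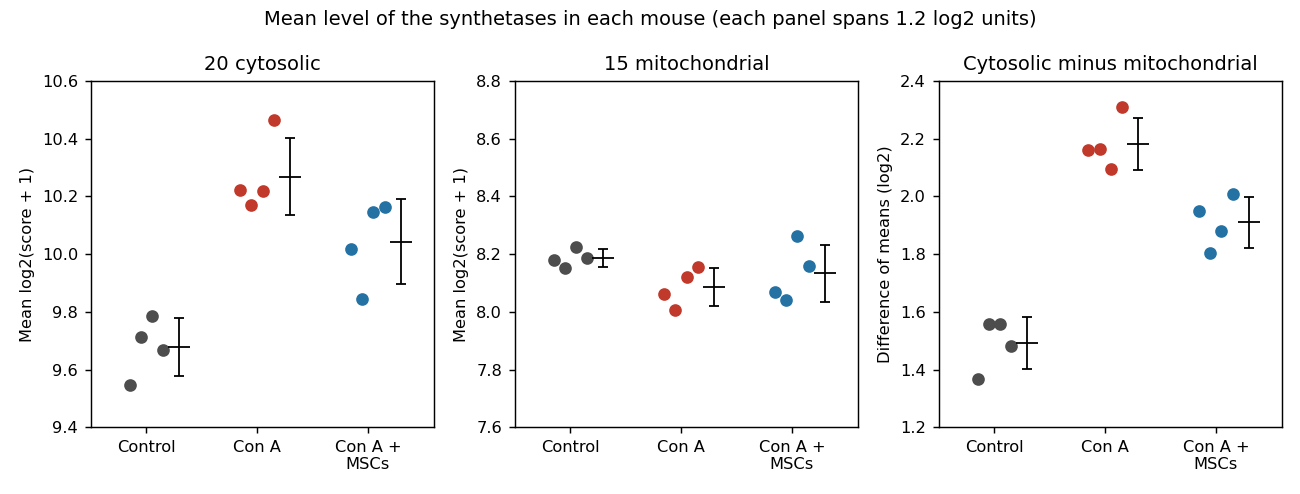
Mean log2(score + 1) of the 20 cytosolic genes, of the 15 mitochondrial genes and the difference between these means, with 1 point per mouse and a bar for the mean ± SD of 4 mice; the 3 vertical axes start at different values and each spans 1.2 log2 units. The difference was 1.37 to 1.56 in Control, 2.10 to 2.31 in Con A and 1.80 to 2.01 in Con A + MSCs mice.

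Averaged over its genes, the cytosolic class had a mean log2 score of 9.68 ± 0.10 in Control (SD, n = 4), 10.27 ± 0.13 in Con A and 10.04 ± 0.15 in Con A + MSCs mice. The mitochondrial class had 8.19 ± 0.03, 8.09 ± 0.07 and 8.13 ± 0.10. Since both means come from the same liver, their difference can be read within each mouse, and only its change between groups is meant here. It was 1.37, 1.56, 1.56 and 1.48 in Control, 2.16, 2.16, 2.10 and 2.31 in Con A and 1.95, 1.80, 1.88 and 2.01 in Con A + MSCs mice. The 3 groups did not overlap, with Con A highest and Con A + MSCs in between. No test was run on these class means, since the genes were chosen with earlier results of these data known.

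Enzymes for the same amino acid could be set against each other in 16 pairs, with Farsa and Farsb both paired with Fars2. After Con A the log2 fold change of the cytosolic enzyme was above that of its partner in 12 pairs, and the median change of the log2 ratio was 0.96, from -0.49 to 1.72. The ratio of Wars to Wars2 had the largest shift, from a mean log2 ratio of 1.99 ± 0.20 in Control to 3.71 ± 0.22 in Con A (SD, n = 4). For Nars and Nars2 and for Vars and Vars2 the shifts were 1.41 and 1.52. In 4 pairs the ratio moved the other way, namely Mars to Mars2 (-0.49), Eprs to Ears2 (-0.46), Cars to Cars2 (-0.41) and Tars to Tars2 (-0.21). The first 3 of these 4 had no overlap between Control and Con A mice, and the Tars ratio overlapped. Those 4 cytosolic genes are the same 4 whose adjusted p after Con A was above 0.05 with all mice.

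**Figure D4:**
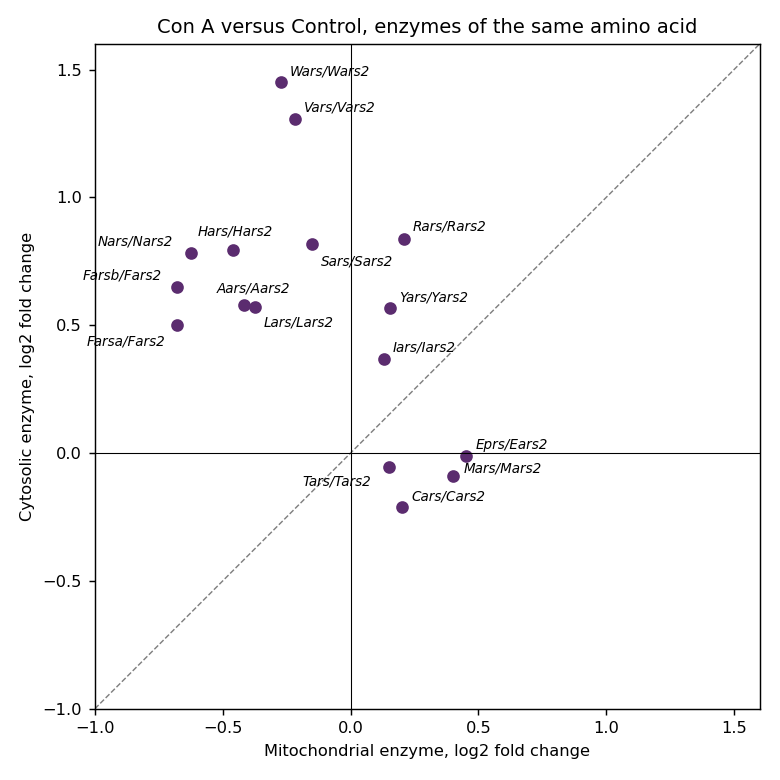
Log2 fold change in Con A versus Control of the cytosolic enzyme (vertical) against the mitochondrial enzyme (horizontal) for the 16 pairs, with the dashed line at equal change. The 12 pairs above the line had the higher value in the cytosolic enzyme, and the 4 below it, Mars, Eprs, Cars and Tars with their partners, had it in the mitochondrial one.

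With MSCs added, no synthetase was called against Con A alone by limma, 0 of 20 cytosolic and 0 of 15 mitochondrial, where 8.58% of all genes were called in either direction (4.2% up and 4.38% down). At an unadjusted p below 0.05 there were 11 of the 35, 10 cytosolic and 1 mitochondrial, against 34.6% of all genes. The cytosolic genes had a median log2 fold change of -0.23 and the mitochondrial genes of 0.03, beside 0.00 over all genes. Of the cytosolic genes 18 of 20 had a negative value. Without Con A mouse 4 the medians were -0.19 and 0.05, and the counts of called genes were again 0 and 0, in a comparison where the calls over all genes then fell from 474 up and 495 down to 136 and 149.

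In 5 cytosolic genes (Cars, Iars, Rars, Sars and Wars) every Con A + MSCs mouse lay below every Con A mouse, against 11.6% of all genes, and in Hars2 every one lay above, against 11.9%. Wars had the largest difference, -0.46 ± 0.12 (adjusted p = 0.0337), with its scores given above, which is under 1.5-fold. By adjusted p alone it was the 1 synthetase lower, against 6.65% of all genes, and Hars2 the 1 higher, against 6.5%. Leaving out 1 mouse gave 0 to 4 cytosolic genes lower by adjusted p, with 4 (Wars, Iars, Sars and Kars) without Con A mouse 2 and 2 (Wars and Iars) without Control mouse 1 or Con A + MSCs mouse 4. Both depended on single mice: over 19 alternatives the adjusted p of Wars ran from 0.0119 to 0.1005 and that of Hars2 from 0.0303 to 0.102, and each was above 0.05 in 6 of them, among them the fit without Con A mouse 4 (Wars -0.40, Hars2 0.31). The others were without Con A mouse 1 (-0.40 and 0.41), Con A mouse 3 (-0.48 and 0.41), Con A + MSCs mouse 2 (-0.41 and 0.34) or Con A + MSCs mouse 3 (-0.46 and 0.38) for both, and the fit of 8 mice for Wars and that without Con A + MSCs mouse 1 (0.41) for Hars2. Iars, the isoleucyl enzyme of the complex, had -0.45 ± 0.14 (adjusted p = 0.0528), from 762, 792, 803 and 1140 in Con A to 589, 610, 610 and 732 in Con A + MSCs mice, beside 566 to 732 in Control. Without Con A mouse 4 the value for Iars was -0.31 (adjusted p = 0.111), and over the 19 alternatives its adjusted p ran from 0.0248 to 0.127. It was below 0.05 in 5 of them, with the replicate number as a block (0.0248), with a mean score of at least 100 (0.0487), and without Control mouse 1 (0.042), Con A mouse 2 (0.0477) or Con A + MSCs mouse 4 (0.0407). Sars had -0.40 ± 0.13 (adjusted p = 0.0615, and 0.0447 without Con A mouse 2) and Rars -0.32 ± 0.13 (adjusted p = 0.101), so that with all mice these separated groups did not reach the adjusted limit. Cars had -0.31 ± 0.12 (adjusted p = 0.0895), with all Con A + MSCs mice at 411 to 452 also below all Control mice at 526 to 768.

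Hars2 went from 347, 318, 344 and 282 in Con A to 390, 454, 414 and 415 in Con A + MSCs mice, a change of 0.38 ± 0.10 (adjusted p = 0.0347), and its Control mice stood at 399 to 478. It was thus lower in Con A than in either other group in every mouse. Its neighbour Hars had 0.01 with an interval of -0.30 to 0.33 in the same comparison. Among genes that rose after Con A, Vars had -0.40 (-0.75 to -0.05) with MSCs, Kars -0.38 (-0.65 to -0.11, adjusted p = 0.0588 and 0.0319 without Con A mouse 2) and Gars -0.31 (-0.62 to -0.01). For Nars, Dars and Farsb the intervals included 0, at -0.50 to 0.10, -0.50 to 0.16 and -0.43 to 0.19. For the mitochondrial genes that fell after Con A, Fars2 had 0.27 (-0.06 to 0.59) and Nars2 0.09 (-0.19 to 0.36).

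Against Control, the Con A + MSCs mice had 3 cytosolic genes called up, 0 down, and 0 mitochondrial genes, where 13.6% of all genes were called up and 13.1% down. The 3 were Wars (0.99 ± 0.12, adjusted p = 6.55e-05), Vars (0.91 ± 0.16, adjusted p = 0.000905) and Hars (0.81 ± 0.15, adjusted p = 0.00105). Above a fold change of 2 there were 0 of either class, beside 6.49% of all genes up and 7.14% down. The medians were 0.45 for cytosolic and -0.08 for mitochondrial genes. By adjusted p alone 14 cytosolic genes were higher, against 22.3% of all genes (9 without Control mouse 4, Con A + MSCs mouse 3 or Con A + MSCs mouse 4), and in 11 all Con A + MSCs mice lay above all Control mice, against 20.6%. Cars went the other way with -0.53 ± 0.12 (adjusted p = 0.00442), the 1 cytosolic gene lower by adjusted p (18.4% of all genes) and without overlap (17.3%). Without Control mouse 1 Cars was called down, with -0.61 (adjusted p = 0.00198). Cytosolic calls up numbered 6 without Control mouse 3, which added Gars (0.61), Rars (0.59) and Aars (0.59), and 7 without Con A + MSCs mouse 2, which added Lars (0.61), Farsb (0.65), Gars (0.70) and Nars (0.67). Nars was also called without Control mouse 2 (0.62) or Con A + MSCs mouse 1 (0.62). The mitochondrial count was 1 without Con A + MSCs mouse 3, through Nars2 (-0.60, against -0.54 with all mice). By adjusted p alone 2 mitochondrial genes were higher, Ears2 (0.45) and Tars2 (0.29), and 4 lower, Nars2 (-0.54), Wars2 (-0.51), Fars2 (-0.41) and Vars2 (-0.36), against 22.3% and 18.4% of all genes. Leaving out 1 mouse gave 1 to 3 higher and 1 to 4 lower, and Ears2 and Nars2 were among them in all 12 such fits. The 1 higher came without Control mouse 2 or Con A + MSCs mouse 1, 3 or 4. The 1 lower came without Control mouse 4 or Con A + MSCs mouse 1 or 2, and 2 were lower without Control mouse 2, Con A mouse 1, Con A mouse 3 or Con A + MSCs mouse 4. This comparison and that of Con A with Control share the Control mice.

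Proteins that work beside the synthetases were followed as lists. Of the 3 scaffold proteins of the complex, Aimp2 rose after Con A by 0.81 ± 0.24 (adjusted p = 0.0119) and Eef1e1 by 0.75 ± 0.17 (adjusted p = 0.00243), and Aimp1 had 0.48 ± 0.16 (adjusted p = 0.0195) below the fold limit. The 2 of 3 called stand beside 19.5% of all genes called up. The list median was 0.75, and without Con A mouse 4 the count was 1 and the median 0.57. None of the 4 trans-editing factors, which clear wrongly charged transfer RNAs, was called in any of the 3 comparisons (0 of 4 each), beside 19.5% of all genes up and 19.2% down after Con A, 4.2% and 4.38% with MSCs against Con A, and 13.6% and 13.1% with MSCs against Control. Their median log2 fold change was -0.31 after Con A and 0.36 with MSCs against Con A, where the 4 values ran from 0.30 to 0.56, and these comparisons share the Con A mice. Dtd2 had an adjusted p below 0.05 in both, with -0.34 (adjusted p = 0.032) and 0.56 (adjusted p = 0.0251), and Dtd1 had -0.53 (adjusted p = 0.00932) and 0.36 (adjusted p = 0.111). Among 8 other charging enzymes found in the table of 9 listed, 4 fell and 1 rose after Con A, with a median of -0.58, beside 19.2% and 19.5% of all genes. Tarsl2, a further threonyl enzyme, fell with a log2 fold change of -1.24 ± 0.17, and Pet112, a subunit of the mitochondrial glutaminyl-transfer RNA amidotransferase, with -1.22 ± 0.15. Sepsecs, which makes selenocysteine on its transfer RNA, fell with -1.04 ± 0.14, and the mean scores of Sepsecs were 1277 in Control, 631 in Con A and 856.5 in Con A + MSCs mice. The gene that rose, Qrsl1 (0.76), was not called without Con A mouse 4, when 4 fell and 0 rose.

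Genes of the amino acid response, as known targets or members of the ATF4 pathway, rose in 14 of 23 after Con A, 0 fell, and the median was 0.99, beside 19.5% of all genes called up and 19.2% down. Psat1 and Phgdh, for serine synthesis, had 5.23 ± 0.84 and 3.40 ± 0.33, and the transcription factor gene Atf3 had 5.15 ± 0.68, while Atf4 itself had 0.47 ± 0.16, under the fold limit. Without Con A mouse 4 the count was 13 and the median 0.70. With MSCs added 7 of the 23 fell against Con A, beside 4.38% of all genes, and the median was -0.68. Without that mouse the count was 0 and the median -0.48, beside 1.32% of all genes called down in that fit. All 7 genes of the interferon gamma response in the table, of 8 listed, rose after Con A, with Cxcl9 at 8.53 ± 0.42, Gbp2 at 5.99 ± 0.35 and Cxcl10 at 5.54 ± 0.52. Against Con A 3 of these 7 fell with MSCs, again beside 4.38%, and 2 without Con A mouse 4, beside 1.32%.

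Markers of other liver cells also differed between the groups, in part. The summed score of 6 of 6 Kupffer cell markers was 3490 to 5819 in Control, 256 to 500 in Con A and 279 to 833 in Con A + MSCs mice. That of 7 of 7 monocyte and neutrophil markers was 929 to 1298, 6160 to 7642 and 2675 to 4808. Cd14 was the largest part of that sum in both groups given Con A (means 4709.5 and 1972). With MSCs it was the 1 marker of the 7 called against Con A (-1.33), beside 4.2% of all genes up and 4.38% down. After Con A Lyz2 fell (-1.39) and the other 6 rose, beside 19.2% of all genes down and 19.5% up. Only 2 of 7 T cell markers were in the table, with Cd3e, Cd3d, Cd3g, Cd4 and Trac absent from it, and their sum was 15 to 37, 114 to 236 and 136 to 162. Endothelial markers (5 of 5) summed to 1560 to 2153, 1067 to 1500 and 1192 to 1429, and stellate cell markers (5 of 5) to 4381 to 7200, 5745 to 6678 and 4146 to 8506. These sums mix markers that went different ways after Con A: Lyve1 rose (1.29) while Kdr (-2.52) and Stab2 (-0.79) fell, and Lrat (-2.24) and Reln (-2.60) fell while Dcn, the largest part of the stellate sum, had 0.48 under the fold limit. Kupffer, T cell, endothelial and stellate sums overlapped between Con A and Con A + MSCs mice. Of the 5 endothelial markers 3 were called between those groups, beside 4.2% of all genes up and 4.38% down. Stab2 was higher with MSCs (0.59), and Lyve1 (-0.90) and Cdh5 (-0.66) were lower. Without Con A mouse 4 the counts were 0 up and 1 down, beside 1.2% and 1.32% of all genes. The part of these differences in cell markers in the synthetase results was not tested.

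Single mice ran high or low in many of these genes at once. Con A mouse 4 was the highest of its group in 15 of the 20 cytosolic genes and in 8 of the 15 mitochondrial ones, and Control mouse 1 was the lowest of its group in 14 cytosolic genes. Con A + MSCs mouse 2 was the lowest of its group in 14 of 20 as well. Over all genes these mice held the same rank in 39.8%, 33.1% and 29.6%.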

How the data were processed

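Liver RNA of 12 mice (4 each of Control, Con A and Con A + MSCs, grouped by the labels) was analysed from a single table. The authors deposited, for each of 11289 genes and each mouse, a score, a whole number already normalized between mice: the totals differ little (17649654 to 17657159), the median is 352 in every mouse and 82.1% of ranks hold the same value in all mice. The normalization is not given in the sources used here. The submitters' processing notes name Bowtie2 2.2.1, RSEM 1.2.18 and the build mm10, without role or order, and the study's methods name DESeq2 for its own comparisons. Scores are not counts, so count tests, DESeq2 among them, were not run.

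The model was limma 3.58.1 in R 4.3.3 on log2(score + 1), with lmFit and eBayes (trend on), a mean for each group over all 12 mice and no further covariates. Benjamini-Hochberg adjustment ran over the whole table. Calls needed an adjusted p under 0.05 with more than a 1.5-fold change, which is the study's fold. The fit was first tested on simulated data. Summaries were made in Python 3.11.15 with numpy 2.4.6 and pandas 2.3.3, and plots with matplotlib 3.10.9. Replicates are different mice.

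The synthetases, the other lists and the cell markers were chosen with earlier results of these data known. Values in each mouse are given for the genes called in Con A versus Control or in Con A + MSCs versus Con A and for the mitochondrial partners of the first 2, and in other lists up to 3 called genes with the largest change are named. Atf4, Aimp1 and Qrsl1, the per-mouse values of Iars and Hars2 and the printed promoters were chosen after their values were seen. Transcript positions are those of the table, compared with GENCODE M21. Alternatives were quantile normalization or median centring of the log2 scores, a pseudocount of 10, only genes whose mean score reached 100, no trend in eBayes, fits of the 8 mice in a comparison, a block for the replicate number, leaving out each mouse, other call rules, and class medians without Gars, Kars and Qars. The gene lists without Con A mouse 4 were added after seeing the data.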

Additional observations from a re-analysis of the deposited data

Results flagged for a closer look

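In groups of 4 mice, the gap between the most extreme mouse and its nearest neighbour was compared with the group's range by Dixon's criterion. Of 105 groups (35 genes in 3 groups of mice) 8 passed it, and chance gives about 1 in 20. There were 5 in the Con A group, all with mouse 4 highest: Gars at 1918 beside 1405 for the next mouse, Hars at 1024 beside 737, Farsb at 981 beside 735, Iars at 1140 beside 803 and Mars at 1088 beside 824. In the Con A + MSCs group Iars stood at 732 in mouse 4, beside 610. In the Control group mouse 1 was the lowest, with Qars at 625 beside 750 and Aars2 at 246 beside 314. The genes share these mice, so the passes are not independent of each other.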

How the results depend on the processing

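With median centring, quantile normalization, a pseudocount of 10, no trend, fits of 8 mice or only genes of mean score 100 or more, the same 13 synthetases were called in Con A versus Control, 0 in Con A + MSCs versus Con A and the same 3 in Con A + MSCs versus Control. The median of cytosolic minus mitochondrial log2 fold changes was 0.80, -0.26 and 0.53 in these comparisons. The first was 0.66 with only genes of mean score 100 or more, where Wars2 was left out. With a fold change above 2 there were 2 cytosolic and 0 mitochondrial calls in Con A versus Control and 0 cytosolic calls in Con A + MSCs versus Control. By adjusted p alone there were 6 mitochondrial calls (2 up, 4 down) in Con A versus Control, 1 cytosolic and 1 mitochondrial in Con A + MSCs versus Con A, and 15 cytosolic (14 up, 1 down) and 6 mitochondrial (2 up, 4 down) in Con A + MSCs versus Control.

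Leaving out each mouse in turn gave 10 to 15 cytosolic and 1 to 2 mitochondrial calls in Con A versus Control, the 1 without Con A mouse 2, 3 or 4, 0 calls in Con A + MSCs versus Con A, and 3 to 7 and 0 to 1 in Con A + MSCs versus Control. The median differences ranged over 0.75 to 0.82, -0.37 to -0.21 and 0.46 to 0.58. In 12 uncalled values near 0 the sign changed. In Con A versus Control they were Eprs (-0.12 to 0.052) and Tars (-0.15 to 0.029), and in Con A + MSCs versus Control Eprs (-0.020 to 0.15) and Lars2 (-0.13 to 0.18). In Con A + MSCs versus Con A they were Farsa (-0.16 to 0.021), Farsb (-0.19 to 0.00070), Hars (-0.053 to 0.14), Lars (-0.19 to 0.039), Cars2 (-0.077 to 0.085), Ears2 (-0.055 to 0.067), Rars2 (-0.0050 to 0.10) and Yars2 (-0.075 to 0.12). The cause was not tested.

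The replicate numbers belong to different mice. Deviations from the group means correlated at -0.118 to 0.375 over the 12 same-numbered pairs, and in 9 of 24 comparisons of a mouse with another group the best match had its own number. With the replicate number as a block, 13, 0 and 3 synthetases were called, the same genes as without it. Depth is unknown, so no limit from counting can be given, and values at the top of the table are tied between genes.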

Other observations

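Elongation factors, which bring charged transfer RNAs to the ribosome and move it along, were followed as a list of 9. After Con A 2 rose, 1 fell and 6 were not called, beside 19.5% of all genes called up and 19.2% down. The list's shares thus lie near or below those of all genes, and without Con A mouse 4 the counts were the same. The median log2 fold change was 0.24, which is the value of Eef1a1. That gene stood at 72606 in every Con A and Con A + MSCs mouse. Eef1g and Eef1b2, subunits of the factor that recharges elongation factor 1 with GTP, rose by 1.52 ± 0.18 (adjusted p = 3.06e-05) and 1.23 ± 0.17 (adjusted p = 8.73e-05). Eef2, which drives translocation, fell with -0.81 ± 0.20 (adjusted p = 0.00429), from a mean score of 26508 ± 7648 (SD, n = 4) in Control to 14664 ± 2009 in Con A mice. With MSCs added 0 of the 9 were called against Con A by limma, beside 4.2% of all genes up and 4.38% down.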
